A study of Arabidopsis thaliana with 18 samples.

Results

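The genes described here are 44 Arabidopsis thaliana genes for chromatin regulators and transcriptional co-repressors, out of 37336 genes in the count tables. They were chosen by function, from a written list of names. They fall into 8 classes, which are ATP-dependent chromatin remodelers (8 genes), Polycomb group proteins and their partners (11), histone methyltransferases of the Trithorax group (2), histone demethylases (5), histone deacetylases and a partner (4), enzymes of DNA methylation (5), the TOPLESS co-repressors (5) and the LEUNIG and SEUSS co-repressors (4). All 44 genes passed the filter on low counts, which kept 21277 genes.

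RNA was taken from shoot apices of Col-0 plants that had grown for 42 days in short days. The plants were wild type, ft-10 mutants, which lack functional florigen FT, or tfl1-1 mutants, which lack functional TFL1, the antagonist of FT in the choice between shoot and flower fate. Each genotype was sampled untreated and after 24 h in a far-red-enriched photoperiod (FRP), a light treatment that induces FT in leaves, so the 6 conditions share age, ecotype and growth in short days and differ in genotype and light. Each condition had 3 libraries, and 2 of the 3 entered the main comparisons because the labels mark 12 of the 18 libraries as those in the study's own test. By the study's methods these 2 were selected after a principal component analysis, so the main p-values rest on replicates picked with their values in view. The biological coefficient of variation was 0.0738 over the 12 libraries and 0.161 over all 18. The tissue was the whole inflorescence shoot after leaves and roots were cut away, so fewer cells of a type and less RNA per cell cannot be told apart in these values. The labels do not say that replicates came from separate batches of plants, so p-values measure only the spread between these samples.

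Chromatin regulators set which genes can be transcribed. Remodelers use ATP to slide, evict or exchange nucleosomes, Polycomb proteins place and read a repressive methyl mark on histone H3, and Trithorax proteins, demethylases and deacetylases add or remove other histone marks. Co-repressors such as TOPLESS and SEUSS do not bind DNA by themselves but are brought to genes by transcription factors, and several recruit histone deacetylases. In the shoot apex these proteins are best known for keeping floral genes silent until flowering starts and for the switch of those genes once it does.

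Libraries held 20470477 to 35851716 counts, and 7.98% to 10.9% of reads were assigned to no gene. The apex gene STM averaged 93.8 to 255 CPM (counts per 1000000 of the TMM-normalised library size) per condition and KNAT1 averaged 41.6 to 151, while the root hair genes COBL9, EXPA7 and RHD6 stayed at or near 0. PYK10, which is abundant in roots, averaged 144 to 397 CPM. KNAT1 rose upon FRP in each genotype (log2 changes of 1.86 for wild type, 1.58 for tfl1 and 0.71 for ft), as did STM (0.45, 0.78 and 1.44). Of the other meristem markers CLV3, at means of at most 0.523 CPM, fell in the wild type (-2.18), LAS was called in no genotype and WUS was too low to test. All 6 photosynthesis genes on the marker list fell upon FRP in the wild type, by 1.24 to 2.15 on the log2 scale, all 6 fell in tfl1, and 3 of 6 fell in ft. The part of these markers in the values of the chromatin genes was not tested. FT reads numbered 0 in every wild type library, 0 to 3 in tfl1 and 11 to 36 in ft. The ft libraries thus stood apart by more FT reads, not fewer, and the cause was not tested. Since wild type apices held none, a loss of FT transcripts in ft could not be checked. TFL1 reads, which the tfl1-1 allele still yields, numbered 172 to 208 in untreated tfl1 and 1461 to 1647 after FRP. Untreated wild type replicate 1, which is outside the 12, stood apart from its group. Its counts differed from those of the other untreated wild type libraries by a chi-square of 116 and 125 per degree of freedom, against 2.34 to 73.4 for all other replicate pairs.

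Most of the chromatin regulators rose upon FRP in wild type and tfl1 apices, and few changed in ft. In the wild type 34 of 44 were called higher and 0 lower, with a median log2 fold change of 1.44. A call here means an adjusted p of at most 0.005 in the quasi-likelihood test of edgeR, with p-values adjusted by Benjamini and Hochberg's method over all genes tested. Of all genes tested, 33% were called higher. In tfl1 34 were called higher and 0 lower, with a median of 0.99, against 24.6% of all genes called higher. At an unadjusted p under 0.05, 2 members were lower in each of these genotypes, and DESeq2 called 0 lower in either. In ft 1 member was called higher, HDA19, and 3 lower, VRN1, VRN5 and SLK1, with a median of -0.11. The ft counts compare with 12.8% of all genes called higher and 12.6% called lower, and they depended on single libraries. Without untreated ft replicate 2 or without ft FRP replicate 1 no member was called in ft, and without untreated ft replicate 3 there was 1. With all 18 libraries 27 members were called higher in the wild type (24.5% of all genes) and 23 in tfl1 (18.2%), and 2 were called lower in ft. Of all genes of at least 2500 exonic bases 6.41% were called lower in ft in that fit, and 6.54% of shorter genes.

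**Figure D1:**
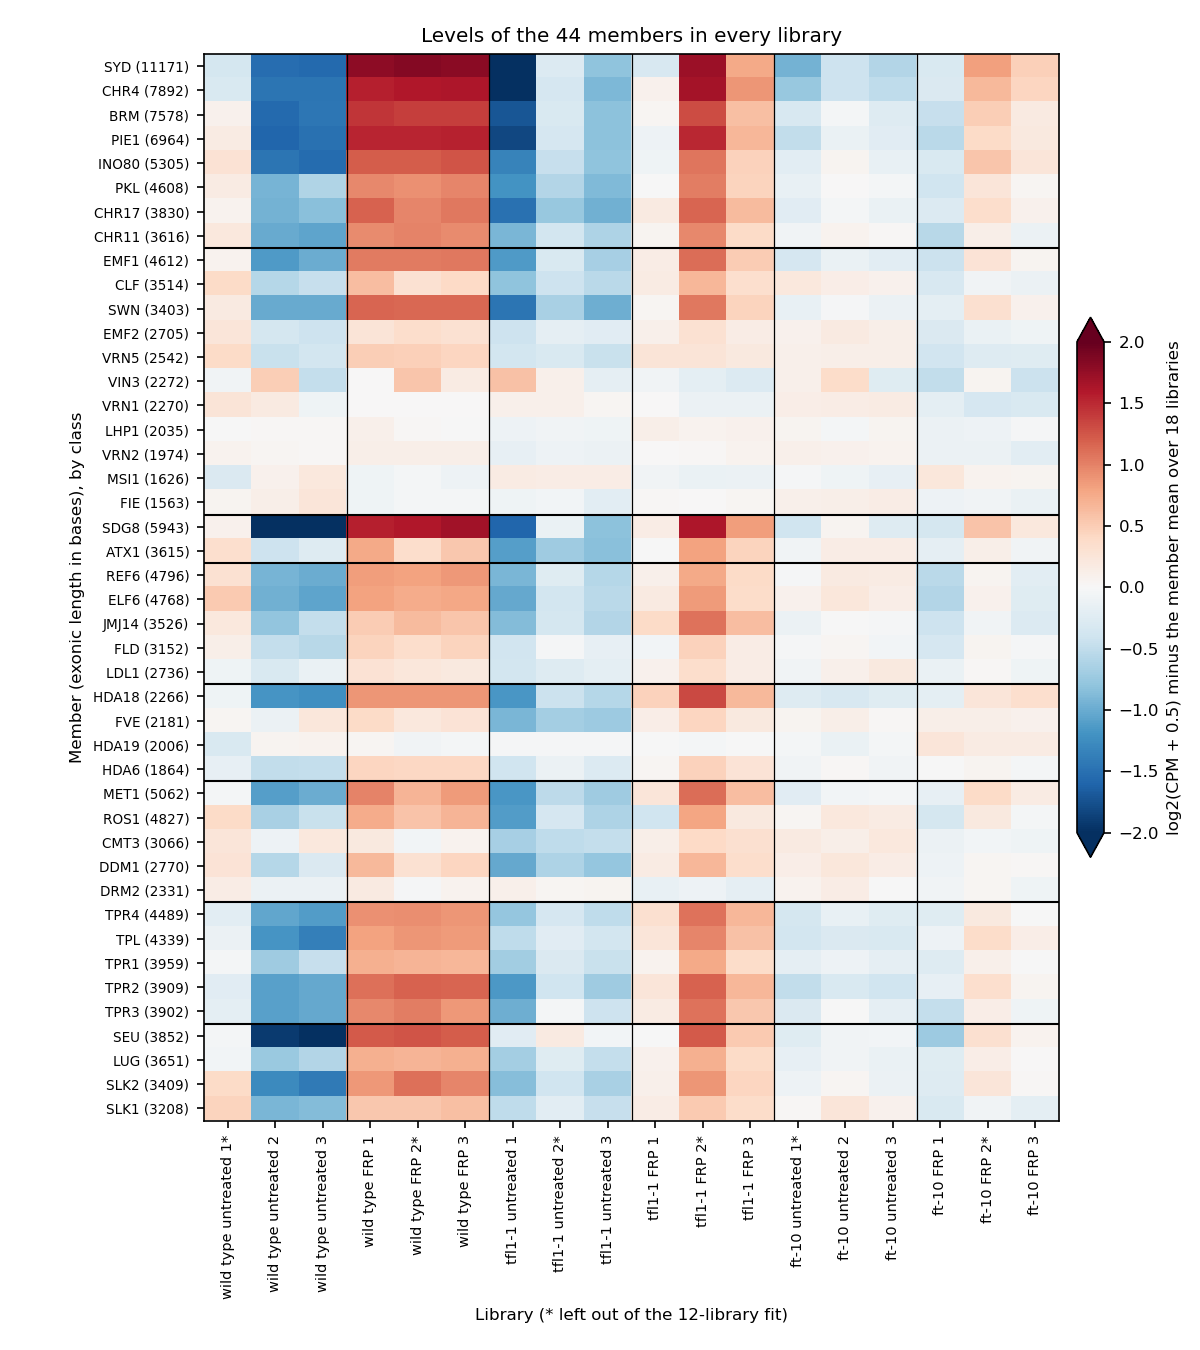
Level of each of the 44 genes in each of the 18 libraries, as log2(CPM + 0.5) minus the gene's own mean over the libraries (colour, cut at 2 in either direction), with genes in rows by class and falling exonic length and libraries in columns by condition. Long genes are low in untreated wild type replicates 2 and 3 and high in all 3 wild type FRP libraries, and untreated wild type replicate 1 lies between them.

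The members are long genes, and in these libraries the FRP effect followed transcript length. Their median exonic length was 3570.5 bases, against 1739 for all genes tested, and 75% of members were at least 2500 bases long against 21.4% of the genes tested. Of the 33 members of that length 32 were called higher in the wild type and 31 in tfl1. Among all 4529 tested genes of that length 74.3% were called higher in the wild type and 57.9% in tfl1. Of the 11 shorter members 2 were called higher in the wild type and 3 in tfl1, where 21.9% and 15.7% of all shorter genes tested were called higher. Across the 44 members the Spearman correlation of length with the FRP effect reached 0.80 for the wild type, 0.71 for tfl1 and 0.26 for ft, where it was 0.53, 0.40 and -0.34 across all genes. These are descriptions across genes of the same libraries, and genes are not independent replicates.

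The slope of this trend went with condition, apart from untreated wild type replicate 1. The slope of log2 level on length, relative to the mean of all libraries, was -0.343 and -0.359 per doubling of length in untreated wild type replicates 2 and 3 but 0.082 in replicate 1. It was 0.281 to 0.307 in the 3 wild type FRP libraries. In tfl1 it was -0.248 to -0.097 untreated and 0.051 to 0.33 with FRP, and in ft it was -0.013 to 0.042 untreated and -0.208 to -0.021 with FRP. The order of the treatments along this slope was thus opposite in ft to that in the other genotypes.

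**Figure D2:**
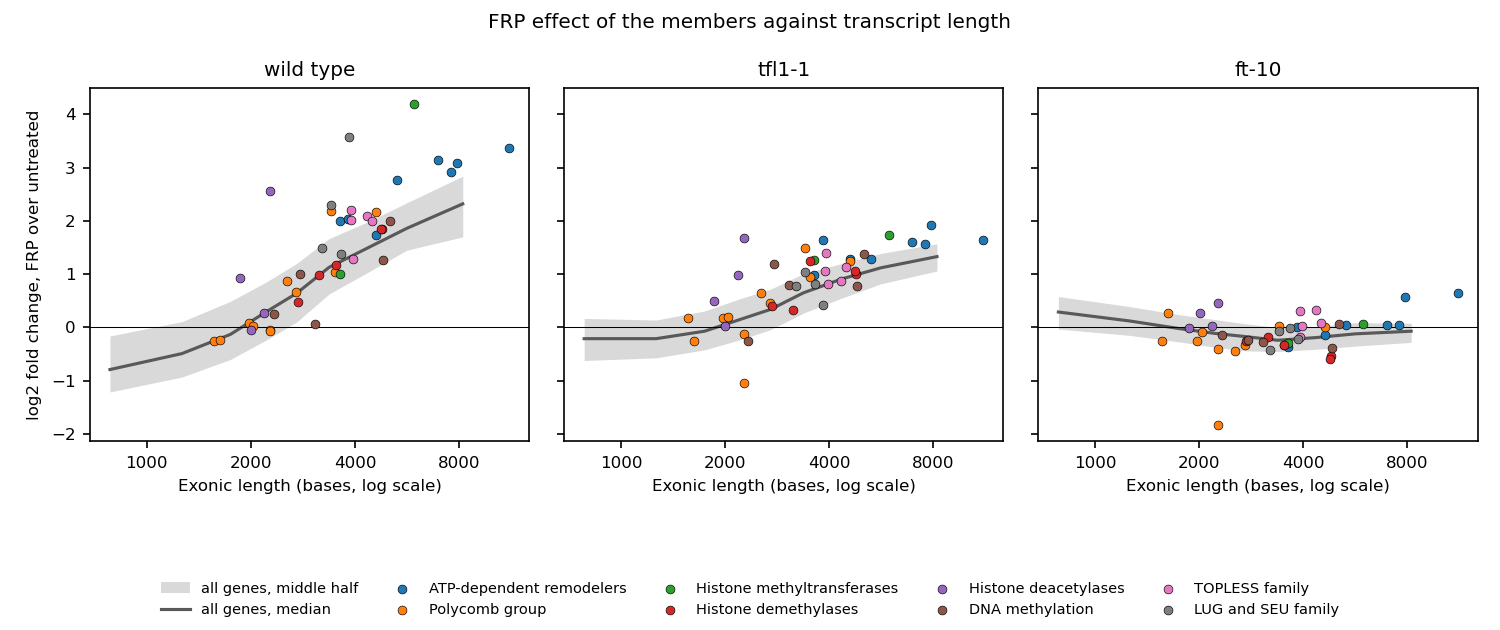
log2 fold change upon FRP (vertical axis) against exonic length (horizontal axis, log scale) for the 44 genes, coloured by class, in wild type, tfl1-1 and ft-10. The grey line and band are the median and interquartile range of all genes tested in bins of length, and most members of the wild type panel lie near or above a line that climbs with length.

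To read the members beside genes of their own length, the counts were fitted again after a smooth trend of level on exonic length had been removed within each library. In that fit the wild type had 20 members called higher and 3 lower (24.1% and 35.2% of all genes), and 20 were called higher and 1 lower in tfl1 (20.7% and 21.6%). In ft 5 were called higher and 3 lower (12.7% and 13.3%). The median log2 fold change of the members became 0.24 for wild type, 0.30 for tfl1 and 0.03 for ft. The removal moved the median of all genes in the wild type from -0.02 to -0.11. With all 18 libraries and the trend removed, 18 members were called higher in the wild type (19.2% of all genes) and 16 in tfl1 (16.7%). The adjusted effects of the members still went with length, with a Spearman correlation of 0.48 for wild type, 0.17 for tfl1 and 0.35 for ft. Across all genes it was 0.05, 0 and 0. The cause of the relation that remained among the members was not tested.

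**Figure D3:**
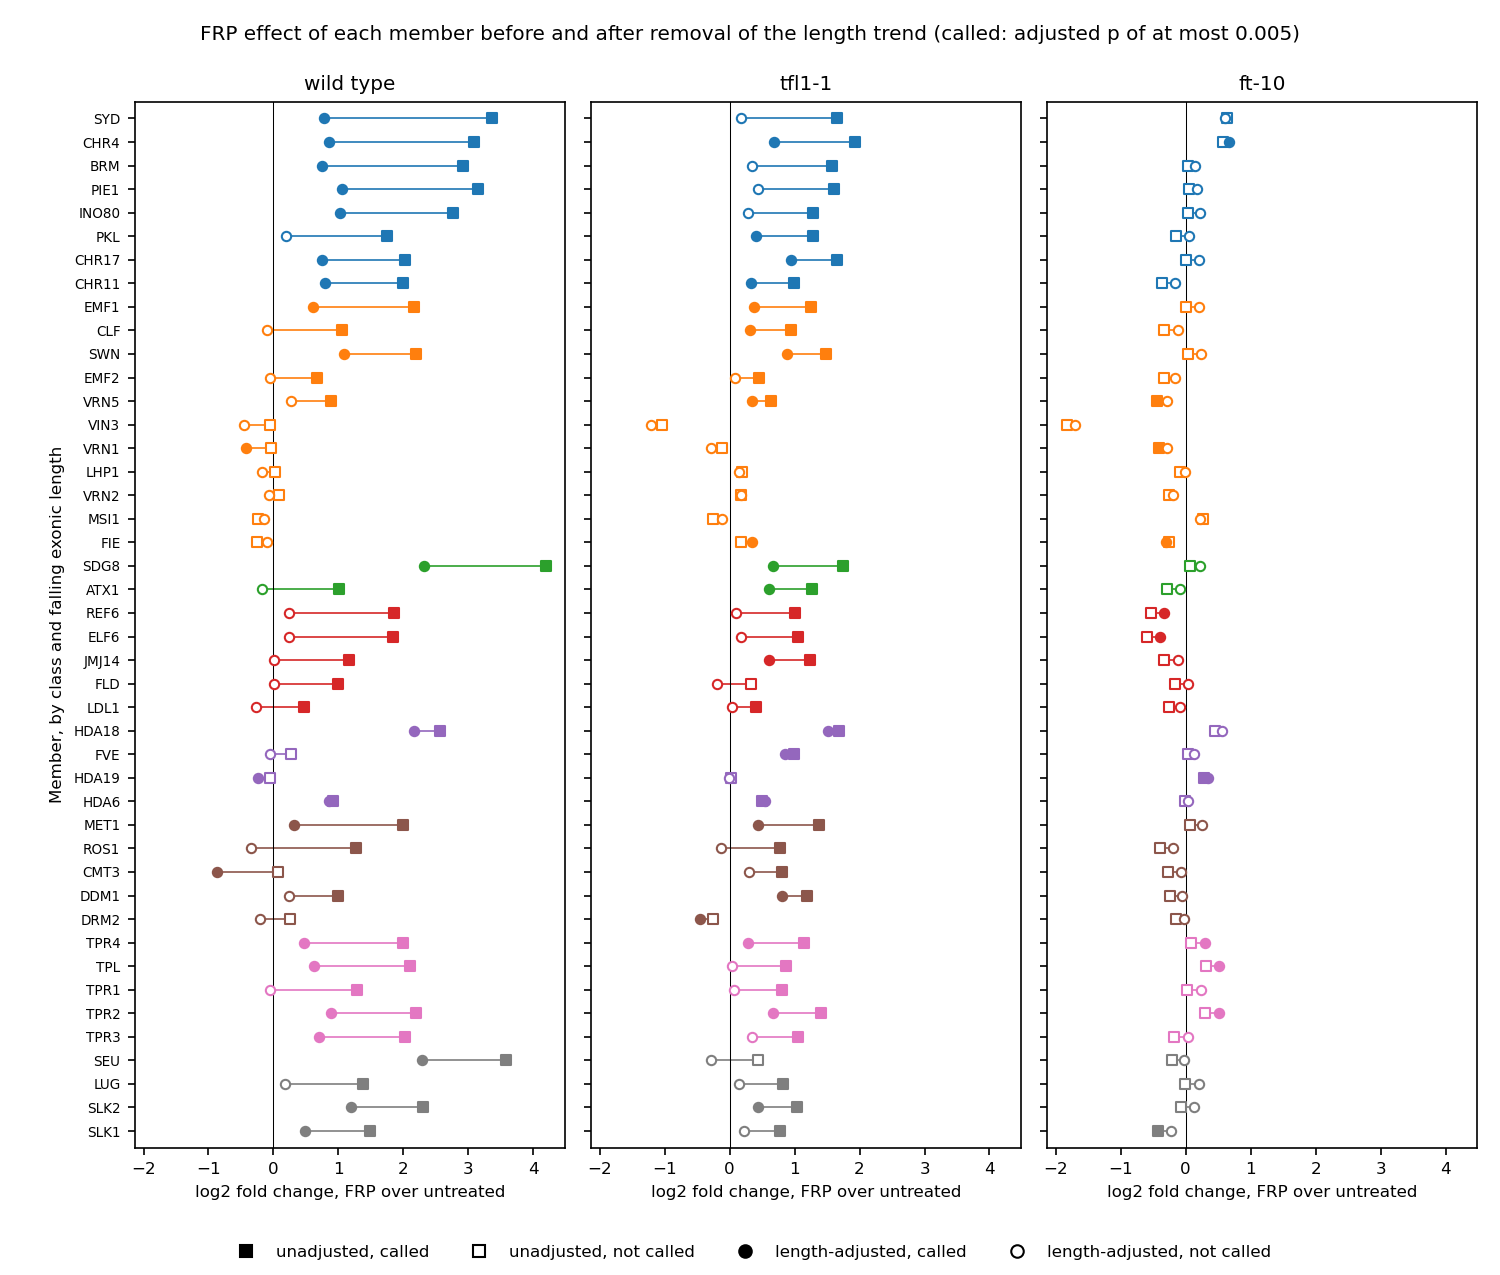
log2 fold change upon FRP of each gene in the 3 genotypes, before (squares) and after (circles) the length trend was removed, with filled symbols for an adjusted p of at most 0.005. The largest shifts are those of the longest remodelers, and SDG8, SEU, HDA18, SLK2 and SWN stay at 1.09 or more in the wild type after the removal.

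The ATP-dependent remodelers had the largest median rise of the 8 classes in the wild type (2.84) before length adjustment. They include the longest members, SYD, CHR4 and BRM, with 11171, 7892 and 7578 exonic bases. All genes of 7000 to 20000 bases had a median of 2.32, and those of 5000 to 7000 bases 1.86. After length adjustment the histone methyltransferases had a higher median than the remodelers. Of all genes of at least 2500 bases, a length that every remodeler passes, 74.3% were called higher in the wild type and 57.9% in tfl1. All 8 remodelers were called higher upon FRP in the wild type, with log2 fold changes of 1.74 to 3.36, and all 8 in tfl1, with 0.99 to 1.93, while none of the 8 was called in ft (-0.37 to 0.64). They are SYD (AT2G28290) and BRM (AT2G46020), the ATPases of SWI/SNF complexes, CHR11 (AT3G06400) and CHR17 (AT5G18620), which are ISWI-type ATPases, INO80 (AT3G57300), PIE1 (AT3G12810), which helps to deposit the histone variant H2A.Z, and the CHD-type proteins PKL (AT2G25170) and CHR4 (AT5G44800). After length adjustment 7 of 8 remained higher in the wild type, at 0.74 to 1.06, with PKL at 0.19. In tfl1 CHR17, CHR4, PKL and CHR11 stayed higher (0.33 to 0.94), and PIE1 (0.43), BRM (0.34), INO80 (0.29) and SYD (0.17) were no longer called.

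BRM was at 85.8, 27.1 and 29.4 CPM in untreated wild type and 217, 212 and 210 with FRP, at 24.3, 65 and 45.4 in untreated tfl1 and 82.9, 201 and 123 with FRP, and at 64.5, 78.3 and 67.6 in untreated ft and 58.3, 114 and 91.6 with FRP. The treatments overlapped only in ft. By edgeR the wild type effect was 2.92 ± 0.29 (adjusted p = 1.95e-06), and 0.74 ± 0.10 after length adjustment (adjusted p = 2.38e-05).

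SYD lies on chromosome 2 from 12056213 to 12073279 (TAIR10.1, plus strand) and has 11171 exonic bases, the most of any member. In untreated wild type it was at 69.2, 30.4 and 29.6 CPM in replicates 1, 2 and 3, and with FRP at 306, 318 and 311. In tfl1 it was at 19.8, 73.1 and 50.3 untreated and 70.4, 289 and 149 with FRP, and in ft at 45.7, 66.3 and 58.9 untreated and 71.2, 156 and 123 with FRP. The groups did not overlap in the wild type or in ft, whereas in tfl1 the highest untreated library passed the lowest FRP library. The wild type log2 fold change was 3.36 ± 0.43 (SE, 2 libraries against 2), with an edgeR adjusted p of 1.67e-05, and 0.77 ± 0.16 after length adjustment (adjusted p = 0.000687). In ft it was 0.64 ± 0.39 (adjusted p = 0.208) and 0.60 ± 0.15 after adjustment (adjusted p = 0.00609), which did not pass the threshold. In tfl1 it was 1.65 before and 0.17 after the adjustment, and the call was lost.

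Among the 11 Polycomb genes the long ones rose and the short ones did not. The members of 2500 bases or more, EMF1, CLF, SWN, EMF2 and VRN5, were called higher in the wild type (0.67 to 2.19) and in tfl1 (0.45 to 1.49). Of all genes of that length 74.3% and 57.9% were called higher in these genotypes. The shorter members were FIE (AT3G20740), VRN2 (AT4G16845), VRN1 (AT3G18990), MSI1 (AT5G58230), LHP1 (AT5G17690), which binds the Polycomb mark, and VIN3. None of them was called in the wild type or tfl1, with values of -0.25 to 0.08 in the wild type. After length adjustment SWN and EMF1 stayed higher in the wild type, and VRN1, a DNA-binding protein of the vernalization pathway, was called lower (-0.43, against -0.04 unadjusted). EMF2 (-0.05), CLF (-0.10) and VRN5 (0.27) were no longer called. In tfl1 the adjusted fit called SWN (0.89), EMF1 (0.38), VRN5 (0.34), FIE (0.34) and CLF (0.31) higher and no longer EMF2 (0.09), and in ft it called FIE lower (-0.31).

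SWN (AT4G02020) and CLF (AT2G23380) are the vegetative methyltransferases that place the Polycomb mark. They have 3403 and 3514 exonic bases, so that a trend on length acts on both alike. SWN was at 41.6, 17.9 and 18 CPM in untreated wild type and 82.4, 81.7 and 81.4 with FRP, at 13, 23.2 and 18.3 in untreated tfl1 and 37.7, 76.1 and 50.1 with FRP, and at 32.8, 35.8 and 33.5 in untreated ft and 31.9, 45.6 and 38.6 with FRP. Groups of SWN did not overlap in the wild type and tfl1 but did in ft. Its FRP effect on the log2 scale was 2.19 ± 0.16 in wild type apices (adjusted p = 2.31e-07) and 1.49 ± 0.16 in tfl1 (adjusted p = 1.11e-05), against 0.03 ± 0.15 in ft (adjusted p = 0.905). After length adjustment these were 1.09, 0.89 and 0.23, with the same calls. The adjusted effect differed between the wild type and ft by 0.86 ± 0.14 (adjusted p = 0.000151), which was lost with all 18 libraries (0.62, edgeR adjusted p = 0.0269). CLF was at 34.6, 17.6 and 18.9 CPM in untreated wild type and 40.7, 32.8 and 34.8 with FRP, so that its replicate 1 overlapped the FRP libraries. Its adjusted wild type value was -0.10 and was not called.

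The level of SWN relative to CLF within a library separated the treatments in each genotype. The log2 ratio of SWN over CLF lay between -0.07 and 0.26 in the 3 untreated wild type libraries and between 1.01 and 1.30 with FRP. In tfl1 it lay between -0.18 and 0.24 untreated and 0.35 and 0.85 with FRP, and in ft between 0.10 and 0.30 untreated and 0.59 and 0.84 with FRP. The mean shift over the genotypes was 0.72, and it was present in ft (0.48), where neither gene was called. An exact two-sided permutation test over all 18 libraries, with treatment labels exchanged within genotypes, gave p = 0.00025, which is the smallest that its 8000 arrangements allow (0.0015 with Benjamini-Hochberg adjustment over 12 pairs). The 12 pairs are those of 18 related pairs whose exonic lengths differ by at most 15% (50.9% to 88.2% of aligned coding bases are identical). SWN and CLF share 57.5% of 2533 aligned coding bases.

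EMF1 (AT5G11530) is a plant-specific Polycomb protein that holds back flowering. It was at 25.1, 10.6 and 11.7 CPM in untreated wild type and 49.4, 49.6 and 50.2 with FRP, and at 10.6, 19.2 and 14.8 in untreated tfl1 and 26.3, 52.4 and 34.1 with FRP. In ft it was at 18.8, 21.7 and 20.5 untreated and 17.6, 29 and 24.7 with FRP. Groups did not overlap in the wild type and tfl1 and did in ft. The log2 fold change in the wild type was 2.17 ± 0.19 (adjusted p = 6.39e-07) and 0.61 ± 0.09 after length adjustment (adjusted p = 4.44e-05).

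VRN5 (AT3G24440), a partner of the Polycomb complex in vernalization, moved in opposite directions in different genotypes. It was at 37.6, 21.1 and 22.2 CPM in untreated wild type and 40.5, 40.1 and 39.1 with FRP, at 22.3, 23.2 and 21.1 in untreated tfl1 and 34.5, 34.4 and 32.9 with FRP, and at 30.9, 31.2 and 31.4 in untreated ft and 22, 24 and 24.2 with FRP. Within every genotype the groups did not overlap. The wild type log2 fold change was 0.88 ± 0.07 (adjusted p = 4.73e-07) and -0.44 ± 0.07 in ft (adjusted p = 0.00052), and the 2 effects differed by 1.32 ± 0.10 (adjusted p = 9.3e-07). After length adjustment the values were 0.27 and -0.28, each short of the threshold, and the difference of 0.55 ± 0.11 was still called (adjusted p = 0.00061). The unadjusted ft effect was not called with all 18 libraries (-0.41, edgeR adjusted p = 0.0574) and the unadjusted difference was (0.98, adjusted p = 0.00197).

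VIN3 (AT5G57380), which prolonged cold induces, was close to the detection floor with 2 to 25 counts per library. Its levels overlapped between treatments in each genotype, from 0.0907 CPM in ft FRP replicate 1 to 0.739 CPM in untreated tfl1 replicate 1, and it was called in no comparison of treatments. Differences in VIN3 were not detectable at this depth.

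Of the histone methyltransferases, SDG8 (AT1G77300) had the largest rise of any member in the wild type in the 12-library fits. SYD was higher when all 18 were fitted (2.86 against 2.73), and SEU and HDA18 were higher with the length trend removed as well. It was at 25.3, 3.52 and 4.63 CPM in untreated wild type and 70.8, 72.8 and 76.8 with FRP. In tfl1 it was at 7.57, 21.6 and 13.2 untreated and 26.2, 73.7 and 42.9 with FRP, and in ft at 17.8, 24.6 and 19.7 untreated and 18.5, 35.3 and 27.6 with FRP. The FRP libraries were all above the untreated ones in the wild type and tfl1 and overlapped them in ft. The wild type log2 fold change was 4.19 ± 0.33 (adjusted p = 3.34e-07), and the change was 1.74 ± 0.28 in tfl1 (adjusted p = 0.000217) and 0.06 ± 0.27 in ft (adjusted p = 0.875). Length adjustment left 2.31 ± 0.17 in the wild type (adjusted p = 1.18e-07). The wild type value was 2.73 with all 18 libraries and 1.52 with the trend removed as well. Replicate 1 of the untreated wild type, which these values include, held far more SDG8 than replicates 2 and 3. In tfl1 the effect with all 18 libraries was not called (1.75, edgeR adjusted p = 0.0181). ATX1 (AT2G31650), a founding plant Trithorax protein, was called higher in the wild type (1.01) as in tfl1 (1.27), and after length adjustment it was called higher in tfl1 only among the 3 genotypes (0.61, against -0.18 in the wild type and -0.08 in ft). That adjusted difference between tfl1 and the wild type was itself called (0.79).

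The 5 histone demethylases rose in the wild type, and none was called there once length was adjusted. Each has at least 2736 exonic bases, and 74.3% of all genes of at least 2500 bases were called higher in the wild type. REF6 (AT3G48430) and ELF6 (AT5G04240), which remove the Polycomb mark, JMJ14 (AT4G20400), which removes an activating mark, and the amine oxidase type enzymes FLD (AT3G10390) and LDL1 (AT1G62830) were all called higher in the wild type, at 0.47 to 1.85. After length adjustment edgeR called 0 of 5 in the wild type, with values of -0.27 to 0.24. At an unadjusted p under 0.05 REF6 and ELF6 were higher and LDL1 lower. In ft the adjusted fit called REF6 (-0.34) and ELF6 (-0.39) lower, and in tfl1 it called JMJ14 higher (0.60).

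REF6 was at 31.5, 13.1 and 12.5 CPM in untreated wild type and 45.6, 44.7 and 46.6 with FRP, at 13.3, 21.5 and 16.9 in untreated tfl1 and 27.4, 43.1 and 33.2 with FRP, and at 25.1, 28.7 and 28.4 in untreated ft and 17.3, 26.3 and 22 with FRP. FRP libraries lay above the untreated ones in the wild type and tfl1, and 1 ft FRP library lay within the untreated range. The wild type effect was 1.85 ± 0.14 (adjusted p = 2.52e-07) and 0.24 ± 0.07 after adjustment (adjusted p = 0.00689). The log2 ratio of ELF6 over REF6, whose lengths differ by 0.6%, overlapped between treatments in every genotype, and its mean shift was -0.01 (exact permutation p = 0.871).

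The histone deacetylases are short genes and behaved apart from each other. HDA18 (AT5G61070) and HDA6 (AT5G63110), the latter active in silencing of transposons and rRNA genes, were called higher in the wild type and in tfl1 with and without length adjustment. HDA6 rose by 0.92 ± 0.08 in the wild type (adjusted p = 1.09e-06) and 0.50 ± 0.08 in tfl1 (adjusted p = 0.000235), and its value in ft was -0.01. With FRP HDA6 lay between 42.3 and 42.7 CPM in the wild type, against 22.4 to 28.4 untreated.

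HDA18 was scarce, at 2.72, 1.01 and 0.954 CPM in untreated wild type and 5.81, 5.82 and 5.77 with FRP, at 1.03, 2.05 and 1.8 in untreated tfl1 and 4.21, 8 and 4.84 with FRP, and at 2.37, 2.25 and 2.39 in untreated ft and 2.48, 3.53 and 3.83 with FRP. The groups did not overlap in any genotype. The wild type log2 fold change was 2.56 ± 0.28 (adjusted p = 4.38e-06) and 2.16 ± 0.26 after adjustment (adjusted p = 8.04e-06), and 1.68 ± 0.25 in tfl1 (adjusted p = 0.000114). In ft it was 0.45 ± 0.24 (adjusted p = 0.153).

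HDA19 (AT4G38130), the deacetylase that TOPLESS proteins recruit, was the most abundant member per length, at a mean of 91.1 CPM per kb. It was at 145, 185 and 187 CPM in untreated wild type and 183, 171 and 175 with FRP, at 176, 177 and 177 in untreated tfl1 and 179, 174 and 179 with FRP, and at 174, 164 and 175 in untreated ft and 212, 200 and 200 with FRP. Only in ft did the groups not overlap, and the ft effect was 0.28 ± 0.06 (adjusted p = 0.00293), against -0.05 ± 0.06 in the wild type (adjusted p = 0.42). The 2 effects differed by -0.34 ± 0.09 (adjusted p = 0.00386) for the wild type minus ft. Neither was called with all 18 libraries, at 0.25 (adjusted p = 0.0334) in ft and -0.22 (adjusted p = 0.112) for the difference by edgeR. The log2 ratio of HDA19 over HDA6 was lower with FRP in the wild type (2.0 to 2.09 against 2.33 to 3.02 untreated) and in tfl1 (1.97 to 2.43 against 2.58 to 2.85) and higher with FRP in ft (2.59 to 2.74 against 2.33 to 2.51), with no overlap in any genotype. Since the directions differ, the shift averaged over genotypes was -0.35 with an exact permutation p of 0.0312 (0.0625 adjusted over 12 pairs).

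FVE (AT2G19520), a WD-repeat partner of deacetylases in the autonomous flowering pathway, changed in tfl1. This gene was picked for description after its values were seen. It was at 97.8, 88 and 112 CPM in untreated wild type and 125, 111 and 115 with FRP, at 50.6, 59.6 and 57.6 in untreated tfl1 and 105, 129 and 109 with FRP, and at 99.2, 104 and 97.1 in untreated ft and 103, 104 and 101 with FRP. Untreated tfl1 was thus lower than every other library, and tfl1 with FRP reached the level of the other groups. The FRP effect in tfl1 was 0.99 ± 0.10 (adjusted p = 9.32e-06), larger than in the wild type by 0.72 ± 0.15 (adjusted p = 0.00194) and by 0.92 ± 0.14 after length adjustment (adjusted p = 0.000199). The untreated difference, tfl1 minus wild type, was -0.88 ± 0.10 (adjusted p = 8.3e-05).

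Of the enzymes of DNA methylation, the maintenance methyltransferase MET1 (AT5G49160), the remodeler DDM1 (AT5G66750) and the demethylase ROS1 (AT2G36490) were called higher in the wild type, at 1.00 to 2.0. The de novo methyltransferase DRM2 (AT5G14620) was not called (0.25), nor was CMT3. After length adjustment only MET1 of the 5 stayed higher in the wild type, at 0.32, with DDM1 at 0.24 and ROS1 at -0.35, while in tfl1 MET1 (0.43) and DDM1 (0.80) were higher and DRM2 lower (-0.45). MET1 acts at replicating DNA. Of the 9 proliferation markers MCM2, MCM5 and MCM7, subunits of the replicative helicase, rose in the wild type (0.83 to 1.03) and in tfl1 (1.06 to 1.52). Of the other 6, TSO2 fell in the wild type (-0.84), and in tfl1 PCNA1 rose (0.73) and KNOLLE fell (-0.70). In ft TSO2 rose (0.44) and CYCB1;1, CDKB2;1, CDKB2;2 and KNOLLE fell (-1.13 to -0.45). The 3 MCM genes were not called in the length-adjusted wild type fit and were called in tfl1 (0.70 to 1.11), and the part of these markers in the values of MET1 and DDM1 was not tested.

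MET1 was at 41.6, 19.5 and 21.2 CPM in untreated wild type and 85.2, 68.3 and 77.2 with FRP, at 18.7, 29.3 and 25.8 in untreated tfl1 and 50.3, 92.4 and 65.2 with FRP, and at 36.4, 40.8 and 41.3 in untreated ft and 37.8, 55.5 and 47.5 with FRP. The treatments overlapped only in ft. The wild type effect was 2.0 ± 0.17 (adjusted p = 4.98e-07) and 0.32 ± 0.07 after adjustment (adjusted p = 0.00185).

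CMT3 (AT1G69770), which maintains methylation outside CG sites, was called in the wild type only after length adjustment. It was at 45.6, 35.8 and 44.7 CPM in untreated wild type and 44, 37 and 40.2 with FRP, at 24.1, 26.8 and 27.4 in untreated tfl1 and 41.8, 50.7 and 48 with FRP, and at 43.4, 41.6 and 44.5 in untreated ft and 35.5, 36.9 and 36.1 with FRP. The wild type treatments overlapped, tfl1 rose without overlap and the ft libraries with FRP were all below the untreated ones. The wild type effect was 0.07 ± 0.11 (adjusted p = 0.588) and -0.87 ± 0.10 after length adjustment (adjusted p = 3.19e-06). It has 3066 exonic bases, and 74.3% of genes of at least 2500 bases were called higher. In tfl1 it was 0.80 ± 0.11 (adjusted p = 6.9e-05) and 0.30 ± 0.09 after adjustment (adjusted p = 0.0139). The FRP effect was larger in tfl1 than in the wild type in both fits, by 0.73 ± 0.16 (adjusted p = 0.00261) and by 1.17 ± 0.13 (adjusted p = 2.81e-05).

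All 5 TOPLESS co-repressors rose in the wild type and in tfl1. Each has at least 3902 exonic bases. Of all genes of at least 2500 bases 74.3% were called higher in the wild type and 57.9% in tfl1. TPL (AT1G15750), TPR1 (AT1G80490), TPR2 (AT3G16830), TPR3 (AT5G27030) and TPR4 (AT3G15880) had log2 fold changes of 1.28 to 2.2 in the wild type and 0.81 to 1.40 in tfl1, and none was called in ft (-0.18 to 0.32). After length adjustment 4 of 5 stayed higher in the wild type (0.47 to 0.88), all but TPR1 at -0.05, and TPR2 and TPR4 in tfl1. In ft the adjusted fit called TPL (0.52), TPR2 (0.51) and TPR4 (0.29) higher. TPL was by far the most abundant of the family per length, at 38.5 CPM per kb against 6.91 to 20.3 for the others.

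TPR2 was at 46.2, 25.2 and 26.3 CPM in untreated wild type and 116, 123 and 121 with FRP, at 24.1, 40.8 and 32.7 in untreated tfl1 and 63.7, 123 and 85.8 with FRP, and at 38.2, 43.5 and 40.9 in untreated ft and 48, 68.4 and 55.8 with FRP. Its FRP libraries were above the untreated ones in all 3 genotypes. The effect was 2.2 ± 0.16 in the wild type (adjusted p = 1.74e-07) and 1.40 ± 0.15 in tfl1 (adjusted p = 1.18e-05). In ft it was 0.30 ± 0.15 (adjusted p = 0.123) and, after adjustment, 0.51 ± 0.08 (adjusted p = 0.000273). The adjusted effects in the wild type and ft differed by 0.37 ± 0.12 (adjusted p = 0.0134), which was not called.

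TPR1 was at 78.9, 49.2 and 58.3 CPM in untreated wild type and 133, 130 and 128 with FRP, at 49.6, 66.3 and 59.1 in untreated tfl1 and 85.3, 137 and 105 with FRP, and at 71.6, 75.2 and 71.3 in untreated ft and 67.6, 87.1 and 80.6 with FRP. The treatments overlapped only in ft. The wild type effect of 1.28 ± 0.13 (adjusted p = 1.98e-06) became -0.05 ± 0.07 after adjustment (adjusted p = 0.522). TPR1 fell relative to TPL, with a log2 ratio of -0.94 to -0.13 in untreated wild type and -1.23 to -1.11 with FRP, and -0.89 to -0.82 in untreated ft and -1.28 to -1.15 with FRP. In tfl1 the ranges overlapped. The mean shift was -0.36 (exact permutation p = 0.0005, 0.002 adjusted over 12 pairs). TPL and TPR1 share 86.7% of aligned coding bases, so reads could in part be ambiguous between them, and the values of either are less certain for that.

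The 4 LEUNIG and SEUSS co-repressors were called higher in the wild type, at 1.38 to 3.58. Each has at least 3208 exonic bases, and 74.3% of all genes of at least 2500 bases were called higher there. LUG (AT4G32551) and SEU (AT1G43850) act as partners that keep the floral organ identity gene AGAMOUS silent in outer whorls, and SLK1 (AT4G25520) and SLK2 (AT5G62090) are SEU relatives. After length adjustment SEU (2.28), SLK2 (1.19) and SLK1 (0.49) stayed higher in the wild type and SLK2 (0.43) in tfl1, while LUG (0.17 and 0.15) was called in neither.

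SEU was low in untreated wild type replicates 2 and 3 alone. It was at 21.2, 5.42 and 3 CPM in untreated wild type and 51.6, 53 and 51.4 with FRP, at 18.5, 24.9 and 21 in untreated tfl1 and 21.6, 51.8 and 31.7 with FRP, and at 18.3, 20.8 and 21 in untreated ft and 13, 27.4 and 23 with FRP. All untreated libraries but those 2 lay between 18.3 and 24.9 CPM. The effect was 3.58 ± 0.30 in the wild type (adjusted p = 4.92e-07) and 0.43 ± 0.24 in tfl1 (adjusted p = 0.141), a difference for tfl1 minus wild type of -3.15 ± 0.39 (adjusted p = 9e-05) and -2.58 ± 0.29 after length adjustment (adjusted p = 2.68e-05). The wild type effect over all 18 libraries was 2.41, and 1.61 with the trend removed, and the difference between tfl1 and the wild type was not called (-1.70, edgeR adjusted p = 0.104). Of the exonic bases of SEU 33.3% overlap the neighbouring gene AT1G43860, and reads were counted without strand, so that reads there cannot be assigned to 1 of the 2 genes. The length adjustment still used all 3852 exonic bases of SEU. The values of SEU, the adjusted ones included, are uncertain for these reasons.

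SLK1 was at 32.8, 12.5 and 13 CPM in untreated wild type and 35.1, 35 and 36.5 with FRP, at 16.7, 20.7 and 17.3 in untreated tfl1 and 26.8, 34.8 and 31 with FRP, and at 24.5, 28.6 and 25.6 in untreated ft and 19.4, 22.9 and 20.8 with FRP. The treatments did not overlap in any genotype, and the direction in ft was opposite to that in the others. The effect was 1.49 ± 0.09 in the wild type (adjusted p = 7.6e-08), 0.77 ± 0.09 in tfl1 (adjusted p = 1.65e-05) and -0.43 ± 0.09 in ft (adjusted p = 0.00204). After length adjustment it was 0.49, 0.22 and -0.23, and only the wild type value was called. SLK1 was called in no genotype with all 18 libraries, at 0.87, 0.76 and -0.32 unadjusted. SLK2 gained on SLK1 in every genotype, with log2 ratios of 0.15 to 0.63 in untreated wild type and 1.02 to 1.26 with FRP, 0.36 to 0.52 against 0.65 to 1.06 in tfl1, and 0.48 to 0.56 against 0.74 to 1.01 in ft. The mean shift was 0.49, with an exact permutation p of 0.00025, again the smallest possible (0.0015 adjusted over 12 pairs).

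Of the 12 pairs of nearly equal length, 4 had an adjusted exact p of at most 0.005, namely SWN over CLF, SLK2 over SLK1, TPR1 over TPL and CHR17 over CHR11. Pairs of genes outside the members were not examined. How often other pairs of nearly equal length shift upon FRP was thus not tested, and the 4 are not shown to be unusual. CHR17 gained on CHR11 by 0.63 in tfl1 and 0.38 in ft, without overlap, and by 0.06 in the wild type, where the treatments overlapped. These remodelers share 88.2% of aligned coding bases, so the split of reads between them is uncertain. TPR2 over TPL (adjusted p = 0.0228), HDA19 over HDA6 and VRN5 over VIN3 (0.0951) did not reach that level in the exact permutation test, and the other 5 pairs had adjusted values of 0.395 or more.

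**Figure D4:**
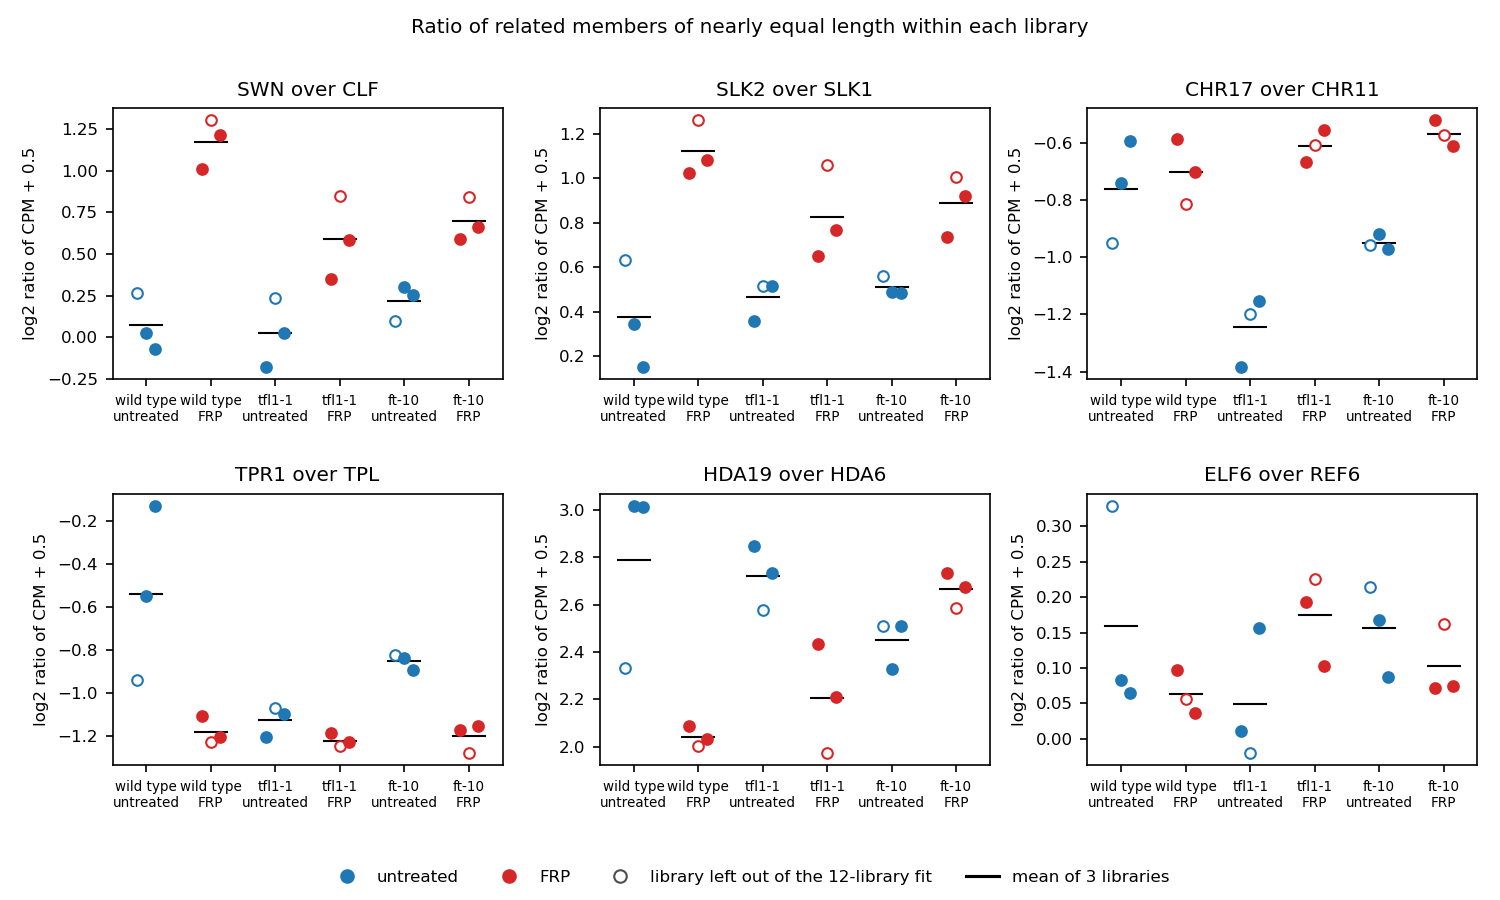
log2 ratio of CPM + 0.5 of 6 pairs of related genes of nearly equal length in each library (points; open where the library is outside the 12), by genotype and treatment, with bars at the mean of 3 libraries. SWN over CLF and SLK2 over SLK1 are higher with FRP in every genotype, HDA19 over HDA6 goes down in the wild type and tfl1 and up in ft, and ELF6 over REF6 overlaps throughout.

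The promoters of SWN, SLK1 and SLK2 share a short sequence. They are shown, with that of CHR17, because they are the genes among the 4 shifted pairs that hold a G-box or an E2F site. CLF, TPL, TPR1 and CHR11 hold neither in this window. The G-box (CACGTG, a palindrome bound by bZIP and bHLH factors) stood in the 250 bases before the annotated start of 4 of the 44 members (9.09%), SWN, SLK1, SLK2 and VIN3, and of 6.49% of 27443 genes. The E2F site (TTCCCGCC, searched on both strands) stood in 3 members, CHR17, DDM1 and ROS1 (6.82%), and in 0.517% of all promoters. The telo-box (AAACCCTA) stood in 2.27% of members, TPR2 alone, and 4.49% of all, and the site II element (TGGGCC) in 20.5% of members and 13.7% of all. A match is a string of letters and no evidence of binding. The sequences below are from RefSeq (TAIR10.1), 5′ to 3′ on the strand of the gene, and capitals mark any of these 4 motifs.
SWN, chr4:886330-886579, plus strand: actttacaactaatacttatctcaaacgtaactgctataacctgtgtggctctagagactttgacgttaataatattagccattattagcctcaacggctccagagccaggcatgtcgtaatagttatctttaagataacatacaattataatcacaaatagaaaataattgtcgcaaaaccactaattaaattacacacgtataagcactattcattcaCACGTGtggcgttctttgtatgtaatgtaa
SLK1, chr4:13036472-13036721, minus strand: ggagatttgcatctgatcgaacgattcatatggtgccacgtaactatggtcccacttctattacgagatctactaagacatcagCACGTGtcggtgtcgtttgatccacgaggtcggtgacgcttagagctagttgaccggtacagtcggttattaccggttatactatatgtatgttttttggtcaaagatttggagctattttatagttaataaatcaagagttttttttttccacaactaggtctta
SLK2, chr5:24939240-24939489, minus strand: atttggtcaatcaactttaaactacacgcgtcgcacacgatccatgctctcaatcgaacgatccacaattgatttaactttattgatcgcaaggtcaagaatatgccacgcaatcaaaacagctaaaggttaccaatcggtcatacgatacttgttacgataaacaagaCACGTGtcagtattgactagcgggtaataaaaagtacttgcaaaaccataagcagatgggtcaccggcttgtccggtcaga
CHR17, chr5:6202169-6202418, minus strand: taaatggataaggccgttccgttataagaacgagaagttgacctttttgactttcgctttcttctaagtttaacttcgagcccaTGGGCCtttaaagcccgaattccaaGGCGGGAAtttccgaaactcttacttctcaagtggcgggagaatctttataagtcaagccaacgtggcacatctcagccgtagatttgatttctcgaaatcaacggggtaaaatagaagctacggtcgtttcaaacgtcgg
SLK1 and SLK2 both hold the G-box, and CHR17 holds an E2F site on the opposite strand and a site II element. A relation of these motifs to the shifts in ratio was not tested.

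The FRP effect itself differed between genotypes for most members before length was considered. It was larger in the wild type than in ft for 35 members and smaller for 2, HDA19 and MSI1, where 29.2% of all genes had a larger effect in the wild type. It was larger in tfl1 than in ft for 31 members and smaller for 1, MSI1, against 20.5% of all genes. The total of 32 was 20 without untreated ft replicate 2 or without untreated tfl1 replicate 1, and 21 without ft FRP replicate 1 or tfl1 FRP replicate 3. After length adjustment the counts were 15 larger and 2 smaller for the wild type against ft (18% of all genes larger) and 14 larger and 3 smaller for tfl1 against ft (13.4%). With all 18 libraries and length adjustment, 1 member, HDA6, had a larger effect in the wild type than in ft (0.69), and 9 were larger and 1 smaller in tfl1 than in ft. Among all genes of at least 2500 bases 4.79% were larger in the wild type than in ft. For tfl1 against ft 8.3% of them were larger and 7.31% smaller. Among shorter genes these shares were 8.39%, 9.21% and 8.12%.

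Between tfl1 and the wild type, the FRP effect was larger in tfl1 for 2 members, FVE and CMT3, and smaller for 10, SEU, SDG8, INO80, SLK2, TPL, CHR11, TPR4, REF6, SLK1 and DRM2, where 13.9% of all genes were larger and 13.9% smaller. The total of 12 was 6 to 7 when any of untreated wild type replicates 2 or 3, wild type FRP replicates 1 or 3, untreated tfl1 replicate 3 or tfl1 FRP replicate 1 was left out. After length adjustment 5 were larger (CMT3, FVE, ATX1, JMJ14 and FIE) and 5 smaller (SEU, SDG8, SLK2, INO80 and TPL), against 26.1% of all genes called in either direction. With all 18 libraries 2 were called, FVE (0.79) and CMT3 (0.90), both larger in tfl1. In that fit 1.12% of all genes of at least 2500 bases were larger in tfl1 and 1.49% smaller. Of shorter genes 2.45% were larger and 2.87% smaller, so 2 members are near the share of all genes.

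Before treatment, 29 members were called higher in ft than in the wild type and 0 lower, with a median of 0.72, against 20.6% of all genes called higher. DESeq2 called 30 higher and 0 lower, and 2 were lower at an unadjusted p under 0.05. Length adjustment left 9 higher (10.4% of all genes) and 2 lower. The 9 were SEU, SDG8, SLK2, INO80, SLK1, CHR11, HDA6, ELF6 and REF6. Without untreated ft replicate 2 or untreated wild type replicate 2 the count of 29 was 12, without untreated ft replicate 3 it was 18, and without untreated wild type replicate 3 it was 19. With all 18 libraries edgeR called 0 members, 3 were higher at an unadjusted p under 0.05, and 0.41% of all genes were called. With untreated wild type replicate 1 alone left out of the 18, 16 were called.

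In untreated tfl1 against untreated wild type 4 members were higher, SEU, TPL, SLK2 and SLK1, and 3 were lower, FVE, CMT3 and FIE, against 24.5% of all genes called in either direction. The total of 7 was 3 without untreated wild type replicate 3 and 4 without untreated ft replicate 2 or untreated tfl1 replicate 1 or 3. After length adjustment 5 were higher and 9 lower (29.3% of all genes called). FVE (-1.01), ATX1 (-0.86), CMT3 (-0.82) and DDM1 (-0.65) had the largest decreases among the 9, and SEU (2.0) and SDG8 (1.18) the largest increases.

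A second list of 45 chromatin genes outside the members, of which 44 were tested, was counted in the same fits. In the wild type 29 were called higher and 6 lower, in tfl1 29 and 4, and in ft 0 and 8, with medians of 1.07, 0.64 and -0.07. Of all genes 33%, 24.6% and 12.8% were called higher in these genotypes, and 12.6% lower in ft. For the wild type length adjustment left 17 higher and 5 lower (24.1% and 35.2% of all genes), and for tfl1 16 and 3 (20.7% and 21.6%). The largest rises in the wild type were those of the DNA demethylase DME (2.92), the remodeler CHR5 (2.85) and the histone methyltransferase ATXR3 (2.72).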

How the data were processed

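Total RNA of 18 shoot apex samples was sequenced as single-end reads. Per the submitters' processing notes and the study's methods, the authors used Trimmomatic for trimming and STAR 2.5.3a for alignment to TAIR10, counted reads per Araport11 gene without strand with HTSeq 0.7.2, and they deposited whole-number counts per gene for each library. Rows that name no gene were left out of library totals.

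A gene entered the test when 2 or more libraries held 10 counts of it. The test was that of edgeR 4.0.16 (TMM normalisation, quasi-likelihood test, limma 3.58.1, R 4.3.3) in 1 model of 6 conditions over 12 libraries. p-values were adjusted by the Benjamini-Hochberg method over all genes, and values given as ± are standard errors. The length-adjusted fit used an offset per library from a natural spline of log count on log exonic length with 5 degrees of freedom. Exonic lengths, promoters and gene positions were from RefSeq TAIR10.1. CPM in the text are counts per 1000000 of the TMM-normalised library size, and ratios of related genes used CPM + 0.5. Alternatives were DESeq2 1.42.0, all 18 libraries, replicate blocks, other filters, thresholds and scalings, length with GC content, and leaving out each library. The fit was tested on simulated data.

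The members and gene lists were chosen with earlier results of these data known. All 44 members were named. Values per library were given for EMF1, TPR1, TPR2 and SLK1, which the study's text names, and for the member of each class with the largest called wild type change. They were also given for members called in opposite directions in 2 genotypes and for members under 50 counts on average. The same holds for members called in the length-adjusted fit with a sign opposite to that of the unadjusted value. BRM, which the study also names, and CLF, FVE, HDA6 and HDA19 were added after their values were seen. The study's supplement further names HDA18 and a PICKLE relative, PKR, among its chromatin regulators. For EMF1, TPR1, TPR2 and SLK1 the study also reported qRT-PCR on independent biological replicates. It described FT-dependent rises upon FRP there, which are not part of the values given here.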

Additional observations from a re-analysis of the deposited data

Results flagged for a closer look

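Of the 44 members, 37 had an FRP effect in the wild type that differed from that in ft. For tfl1 against ft 32 differed, and for tfl1 against the wild type 12, all by the interaction term of edgeR's quasi-likelihood test. Of all genes tested, 29.2% had a larger effect in the wild type than in ft, and 20.5% in tfl1 than in ft. Among genes of at least 2500 bases these shares were 75.5% and 56.3%. Between tfl1 and the wild type 13.9% of all genes were larger in tfl1 and 13.9% smaller. The 12 members are thus near the share of all genes. Among the members given with values per library, wild type plants had a larger effect than tfl1 (tfl1 minus wild type) for SEU (-3.15), SDG8 (-2.45), REF6 (-0.84) and SLK1 (-0.73). They had a smaller effect for CMT3 (0.73) and FVE (0.72), on the log2 scale. The wild type comparisons rest on untreated wild type replicates 2 and 3, which had the lowest slopes of level on length of all libraries. After length adjustment the differences for SEU (-2.58), SDG8 (-1.64), CMT3 (1.17) and FVE were still called, and those for REF6 (-0.13) and SLK1 (-0.26) were not.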

How the results depend on the processing

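Removal of the length trend and the choice of libraries moved the counts of called members most. With the length trend removed in 12 libraries the totals called were 21 in tfl1, 8 in ft, 17 for the wild type against ft, 17 for tfl1 against ft, 14 for untreated tfl1 and 11 for untreated ft against the wild type, and with length and GC content 20 in tfl1, then 18, 15, 15 and 10 for the same differences. With the trend removed in 18 libraries they were 20 in the wild type, 18 in tfl1, 7 in ft, then 1 and 10 for the differences from ft, 6 for tfl1 against the wild type and 0 for untreated ft. With it removed in 17 libraries, without untreated wild type replicate 1, an alternative chosen after seeing the data, they were 22 in tfl1, 14 in ft, 16 and 19 for the differences from ft, 14 for untreated tfl1 and 11 for untreated ft. All 18 libraries without length adjustment gave 2 in ft, 12 and 9 for the differences from ft, 2 for tfl1 against the wild type, 2 for untreated tfl1 and 0 for untreated ft, and 17 libraries gave 16 for the last. At an adjusted p of at most 0.05 the totals were 14 in ft, 26 for tfl1 against the wild type and 13 for untreated tfl1. A change of at least 2-fold left 21 in tfl1, 0 in ft, 6 for tfl1 against the wild type, 1 for untreated tfl1 and 12 for untreated ft. DESeq2 on each genotype alone and scaling by library totals each gave 7 in ft, no filter gave 20 for tfl1 against the wild type, and a fit of only the genotypes compared gave 4 for untreated tfl1.

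Replicate numbers did not pair the samples alike in every genotype. Same-numbered libraries had deviations correlated from -0.171 to 0.010 in the wild type, -0.008 to 0.377 in tfl1 and -0.014 to 0.189 in ft. In tfl1 replicates 1 and 2 correlated at 0.377 and 0.37 with the same number and at -0.382 and -0.365 when crossed. In ft these values were 0.189 and 0.175 against -0.184 and -0.189. The main fit ignored replicate numbers, and a block on them was fitted as an alternative. With the replicate block the totals were 2 in ft and 24 for tfl1 against the wild type over 12 libraries. Over 18 libraries the replicate block gave 21 in tfl1, 1 in ft, 5 and 8 for the differences from ft, 2 for tfl1 against the wild type, 2 for untreated tfl1 and 0 for untreated ft. A replicate block within genotype gave 1 in ft, 11 for tfl1 against ft, 2 for tfl1 against the wild type, 4 for untreated tfl1 and 0 for untreated ft. The replicate block with the length trend removed gave 20 in the wild type, 19 in tfl1, 3 and 8 for the differences from ft, 5 for tfl1 against the wild type, 0 for untreated ft and, against the 8 length-adjusted calls in ft, 5.

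Leaving out each library gave 33 to 35 called members in the wild type, 26 to 34 in tfl1, 0 to 5 in ft, 34 to 36 and 20 to 34 for the differences from ft, 6 to 18 for tfl1 against the wild type, 3 to 9 for untreated tfl1 and 12 to 31 for untreated ft. Of the values of members given per library by rule, 1213 kept direction and side of the threshold across alternatives, 96 lost the call, 22 gained it and 8 changed sign. BRM, CLF, FVE, HDA6 and HDA19, which were added later, were not part of these counts. TPR1 in the wild type was -0.05 with length removed in 12 libraries or 17 and -0.28 with length and GC content. CMT3 in the wild type was -0.87, -0.93 and -0.78 with length removed in 12, 17 and 18 libraries, -0.91 with GC content and -0.78 with the replicate block. The cause was not tested. With 2 libraries per condition in the main fit, few degrees of freedom limit the smaller effects, and VIN3 is limited by depth.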
